A study of Mus musculus with 20 samples.

Results

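The mitochondrial ribosomal protein genes were described here in whole mouse kidney, across 4 groups of mice. They were taken by symbol, as the protein-coding genes whose symbol begins with Mrpl or Mrps followed by a digit, which gave 78 of the 47069 genes of the count table, 49 with an Mrpl symbol and 29 with an Mrps symbol. A further 5 genes with such a symbol were left out because they were not protein-coding. All 78 genes passed the filter on low counts and were tested, among 17622 genes in all. The study used male Col4a3-/- mice, an Alport syndrome model that lacks the alpha3 chain of type IV collagen in the glomerular basement membrane, and wild-type males, all on an F1 background of 129SJ and C57Bl/6J and all killed at 15 weeks of age. WT was 5 untreated wild-type mice. Veh was 6 Col4a3-/- mice injected weekly with PBS. Anti-miR-21 was 6 Col4a3-/- mice given lademirsen, an antisense oligonucleotide against microRNA miR-21, under the skin at 50 mg/kg each week from 5 weeks of age. ACEi was 3 Col4a3-/- mice given ramipril, an inhibitor of angiotensin-converting enzyme, at 11 mg/L in the drinking water, with PBS injections by the study's methods, while the library table gives its dose as 4 mg/kg. Veh and ACEi were also treated from 5 weeks of age. Col4a3 deletion was thus shared by 3 groups, and WT differed from Veh in genotype and in the PBS injections together. The extraction text of the labels names adipose tissue, but the sample labels give kidney, and summed proximal tubule markers reached at least 1745 CPM in all 20 mice.

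The mitochondrial ribosome, or mitoribosome, translates the few messages that remain in the mitochondrial genome, all of which encode core subunits of the oxidative phosphorylation (OXPHOS) complexes. Its rRNAs are made inside the organelle, whereas all of its proteins are encoded in the nucleus, made on cytosolic ribosomes and imported, so that both genomes have to be expressed for it to be assembled. A small subunit decodes the mRNA and a large subunit forms the peptide bond and carries the exit tunnel. Some of its proteins descend from the ribosome of the bacterial ancestor and others exist in mitochondria alone. In the kidney, the proximal tubule reabsorbs most of the filtered load and is rich in mitochondria.

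By their place in the mammalian mitoribosome, 51 of the 78 genes encode proteins of the large subunit and 26 of the small subunit. The symbols are not a full guide to this, since the proteins of Mrps18a and Mrps30 sit in the large subunit. The product of Mrps36 is now known as a component of the ketoglutarate dehydrogenase complex, an enzyme of the citric acid cycle, and was counted in neither subunit. By descent, 47 genes were of bacterial origin and 30 were particular to mitochondria.

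Promoter windows in the RefSeq table, build GRCm38.p6, covered 250 bases before to 50 bases after the annotated start and were found for 69 of the 78 genes. Short motifs of 3 factors known for nuclear genes of mitochondria were searched on both strands, and none of them contains another. The NRF1 core CGCATGCG was in the windows of 7 genes (10.1%, against 2.77% of protein-coding genes in the table), the core CCGGAAGT bound by ETS factors such as GABP in 12 genes (17.4%, against 5.69%), and the YY1 core AAGATGGCG in 8 genes (11.6%, against 2.14%). At least 1 of these motifs was in 37.7% of the mitoribosomal windows by gene, in 29.2% of nuclear OXPHOS subunit genes, in 29.7% of cytosolic ribosomal protein genes and in 9.96% of protein-coding genes. The 5 stretches below run from 250 bases before to 30 bases after the start, 5′ to 3′ along the gene, with the motif letters in capitals. They show the 3 Mrps18 paralogues, which held a different motif each, the stalk gene Mrpl10, and Mrpl52, the member with the highest fold change between Veh and WT.
Mrps18a (chr17:46110754-46111033, + strand, YY1 core): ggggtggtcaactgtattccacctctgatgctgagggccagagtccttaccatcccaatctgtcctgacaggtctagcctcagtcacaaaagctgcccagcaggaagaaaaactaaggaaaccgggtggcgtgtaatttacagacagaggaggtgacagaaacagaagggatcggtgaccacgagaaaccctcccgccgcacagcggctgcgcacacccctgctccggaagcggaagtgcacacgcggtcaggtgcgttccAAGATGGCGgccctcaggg
Mrps18b (chr17:35916411-35916690, - strand, NRF1 core): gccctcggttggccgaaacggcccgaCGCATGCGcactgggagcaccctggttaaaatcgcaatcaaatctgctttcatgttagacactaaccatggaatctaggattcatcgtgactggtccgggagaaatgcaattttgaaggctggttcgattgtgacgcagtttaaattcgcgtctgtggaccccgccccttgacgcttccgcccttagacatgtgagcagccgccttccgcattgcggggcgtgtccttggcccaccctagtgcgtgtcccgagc
Mrps18c (chr5:100798509-100798788, + strand, ETS core, reverse strand): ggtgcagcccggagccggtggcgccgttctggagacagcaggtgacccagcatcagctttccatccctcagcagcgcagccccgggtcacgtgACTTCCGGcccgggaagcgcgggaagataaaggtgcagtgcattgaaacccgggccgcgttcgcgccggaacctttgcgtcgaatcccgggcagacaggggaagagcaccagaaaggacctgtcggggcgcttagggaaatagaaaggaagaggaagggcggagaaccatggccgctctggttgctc
Mrpl10 (chr11:97041332-97041611, + strand, NRF1 core): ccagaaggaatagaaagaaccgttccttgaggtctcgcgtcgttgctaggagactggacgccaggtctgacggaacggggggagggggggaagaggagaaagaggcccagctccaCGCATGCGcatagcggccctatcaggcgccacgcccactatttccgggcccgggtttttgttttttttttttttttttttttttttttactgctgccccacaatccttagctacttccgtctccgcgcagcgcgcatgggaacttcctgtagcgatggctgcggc
Mrpl52 (chr14:54426659-54426938, + strand, ETS core, reverse strand): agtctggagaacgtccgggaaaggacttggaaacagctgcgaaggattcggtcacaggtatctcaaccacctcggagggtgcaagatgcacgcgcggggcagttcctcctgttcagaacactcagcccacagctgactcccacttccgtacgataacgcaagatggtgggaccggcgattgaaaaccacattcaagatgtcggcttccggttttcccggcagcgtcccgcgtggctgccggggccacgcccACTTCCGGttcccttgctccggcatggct

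These motif matches describe letters in a window and do not show a bound site. Counted from the start, the first motif base was at 12 in Mrps18a, at -224 in Mrps18b, at -157 in Mrps18c, at -135 in Mrpl10 and at 2 in Mrpl52. Median GC content was 58.7% in the mitoribosomal windows and 56.3% in those of protein-coding genes.

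Each library held between 28474301 and 29479629 counts, so depth was nearly equal between mice. TMM factors, which rescale each library on the assumption that most genes do not differ, were 0.771 to 0.850 in WT and 1.12 to 1.26 in Veh. Scaling therefore bears on every level below. Levels are given as CPM, a gene's counts per fixed number of library counts, with the library total rescaled by its TMM factor. Col4a3 itself was at 194 to 238 CPM in WT and at 27.9 to 74.9 CPM in the 15 Col4a3-/- mice, which checks the genotype labels. Libraries came from flow cells A and B, and every group had mice on both. A set of 4 mice, 3 of Veh and 1 of Anti-miR-21, had 78.5 to 113 CPM of summed adipocyte markers, against at most 19.7 CPM in the others, and counts were also made without them.

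Per length of transcript, the levels of the 60 members whose deposited FPKM is not shared with another gene spanned a wide range. FPKM values carry no TMM factor. In WT the mean FPKM had a median of 35.4 over these genes, with the lowest value, 6.999, for Mrpl1, a large subunit protein, and the highest for Mrpl12, which forms the flexible stalk of the large subunit. Mrpl42 (117 FPKM), Mrps21 (97.4 FPKM) and Mrpl4 (90.2 FPKM) followed Mrpl12, and Mrpl35 (8.82 FPKM) was the next above Mrpl1, all named for these values after they were seen. The median over the same genes was 33.98 FPKM in Veh, 36.5 FPKM in Anti-miR-21 and 34.3 FPKM in ACEi. Mrpl12 had a mean of 123 FPKM in Veh, 191 FPKM in Anti-miR-21 and 171 FPKM in ACEi, and Mrpl1 of 5.52, 6.45 and 6.06 FPKM.

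Veh was compared with WT to ask what the disease changed. After TMM scaling, 75 of the 78 genes fell in Veh and 1 rose, where 34.0% of all genes tested fell and 39.0% rose. The median log2 fold change was -0.74, with a range of -1.36 to 0.29, where the median of all genes was 0.07. In 70 of the 78 genes every Veh mouse was below every WT mouse, which held for 26.1% of all genes. Tests were by edgeR's quasi-likelihood method, and a gene was called when its Benjamini-Hochberg adjusted p over all genes tested was below 0.05. In whole tissue, fewer cells of a type and less RNA per cell cannot be told apart.

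The scaling set the size of this fall, and for some genes its sign. When the total of each library was the only scaling, the median of all genes was 0.65 higher in Veh, the mitoribosomal median was -0.15, and 22 of the 78 genes were above 0, where TMM gave 3. There were then 36 genes called lower and 8 higher, where 15.2% of all genes were lower and 66.0% higher. Relative to the median of all genes, the members stood at -0.80 under library totals and at -0.81 under TMM. Of all counts in a library, the 78 genes took 3207 to 3955 CPM without scaling factors in WT and 2907 to 3395 in Veh, which overlapped. The falls below are therefore falls relative to most other genes.

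**Figure D1:**
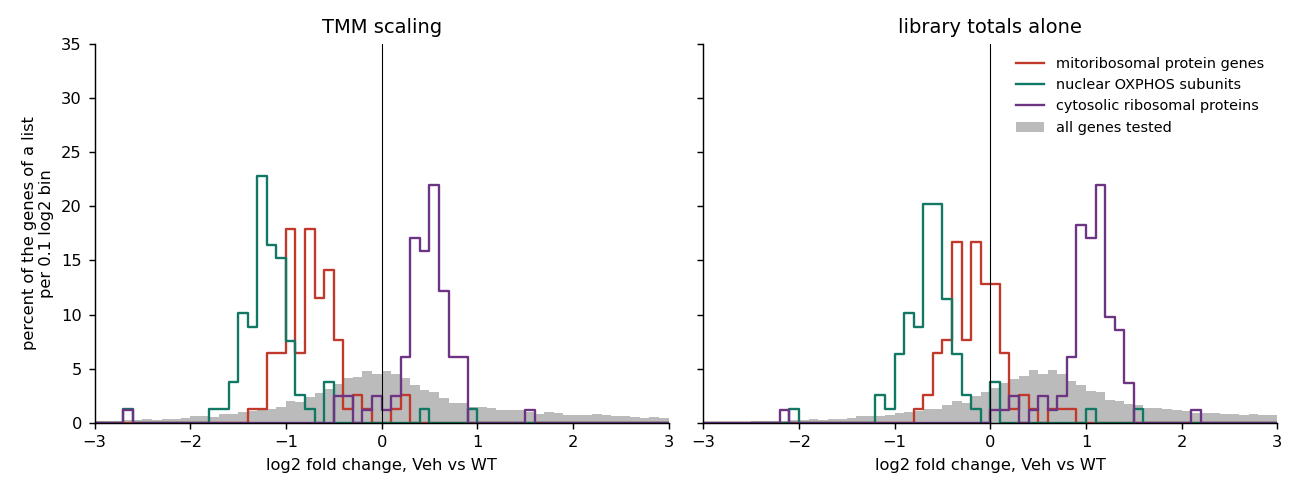
Distribution of log2 fold changes between Veh and WT, in percent of each list per bin, after TMM scaling (left) and with library totals alone (right), for all genes tested (grey bars), the mitoribosomal protein genes, nuclear OXPHOS subunits and cytosolic ribosomal proteins (lines). The mitoribosomal median moved from -0.74 to -0.15 and the median of all genes from 0.07 to 0.65, so that 22 of the 78 genes were above 0 with library totals alone.

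Genes of both subunits fell after TMM scaling. In the large subunit 48 of 51 genes fell and 1 rose, with a median of -0.74. All 26 small subunit genes fell, with a median of -0.72. Genes of bacterial descent (45 of 47 lower, median -0.69) and those particular to mitochondria (29 of 30 lower, 1 higher, median -0.78) did likewise. These 4 medians were -0.15, -0.14, -0.10 and -0.20 with library totals alone, where each class had 2 to 6 genes called higher.

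**Figure D2:**
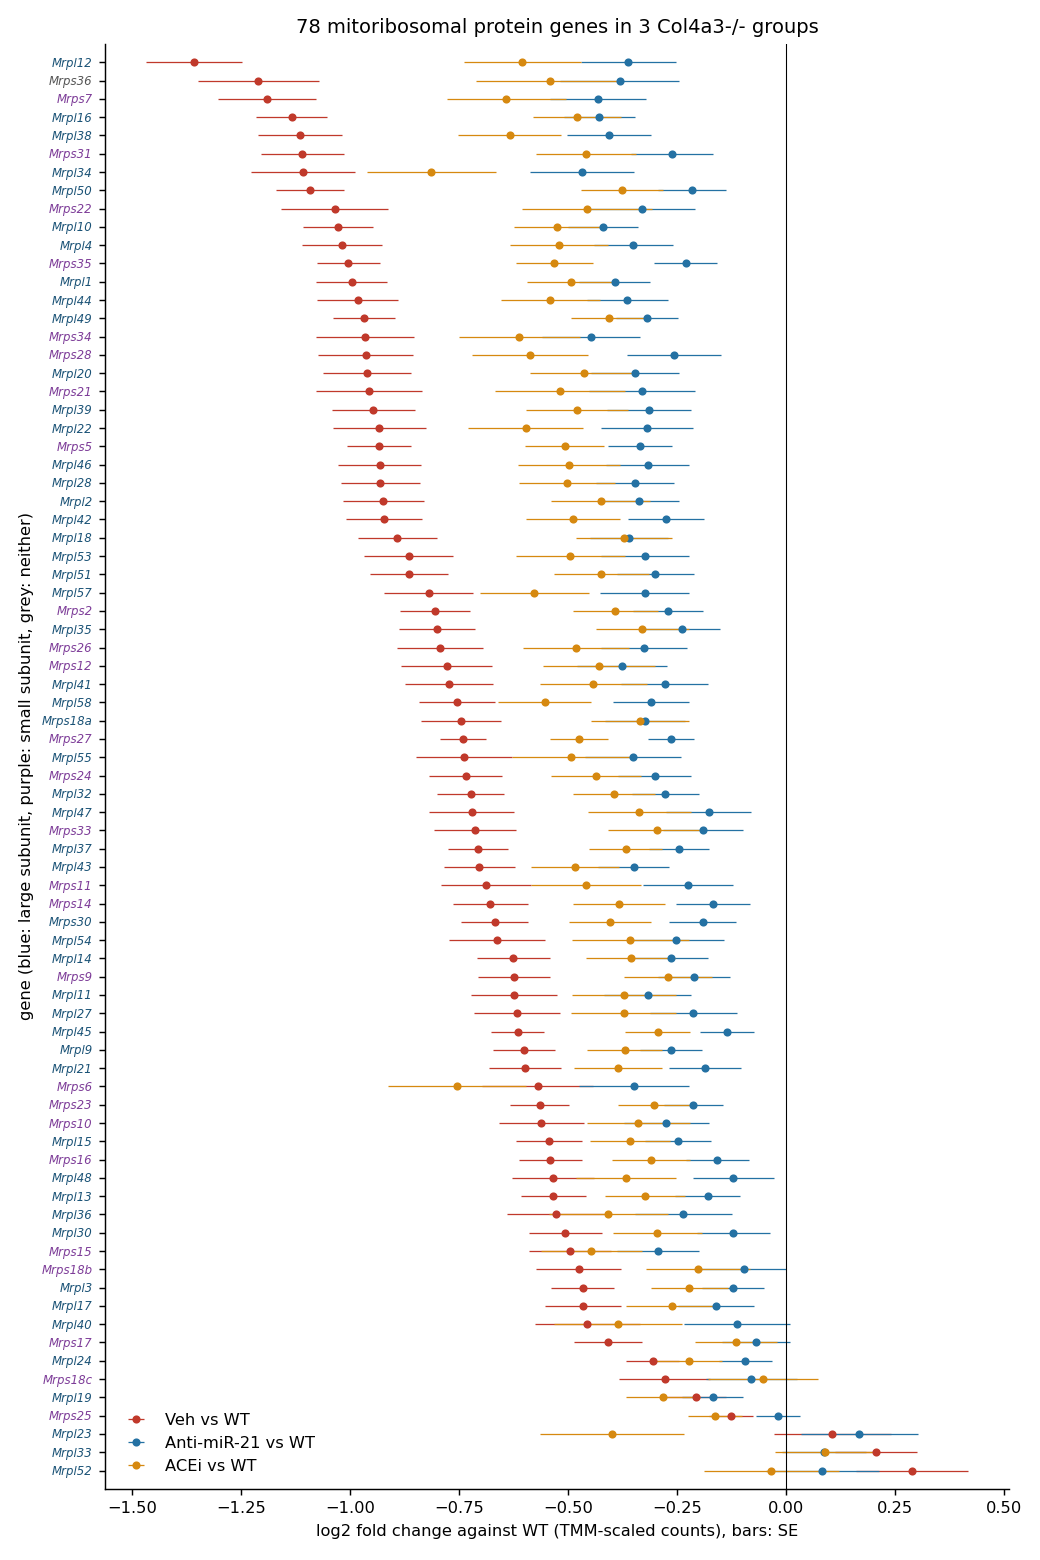
Log2 fold changes with SE of the 78 genes in Veh, Anti-miR-21 and ACEi, each against WT after TMM scaling, ordered by the Veh value, with the names of large subunit genes in blue, small subunit genes in purple and Mrps36 in grey. Veh values run from -1.36 for Mrpl12 to 0.29 for Mrpl52, and the median of Veh (-0.74) lies below those of Anti-miR-21 (-0.27) and ACEi (-0.41); with library totals alone the 3 medians were -0.15, -0.03 and -0.10.

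At the stalk of the large subunit, where translation factors dock, all 3 genes fell, with a median of -1.03. Mrpl12 (ENSMUSG00000039640, chr11:120484613-120489065, + strand) had 248, 199, 229.8, 244 and 289 CPM in the 5 WT mice. Its lowest, median and highest values in Veh were 82.3, 90.5 and 119 CPM, so that the highest Veh mouse was well below the lowest WT mouse. It fell by 1.36 on the log2 scale (SE 0.11, edgeR adjusted p = 7.96e-10), that is, its level decreased by 61.0%. Its exons overlap those of Gm16755 on the other strand, as those of the next gene overlap Gm11574.

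Mrpl10 (ENSMUSG00000001445, chr11:97041560-97049213, + strand) encodes the protein that anchors Mrpl12 to the subunit. It had 128, 111, 125, 121 and 129 CPM in WT and 52.7, 60.2 and 66.8 CPM (lowest, median, highest) in Veh, without overlap (log2 -1.03, SE 0.08, edgeR adjusted p = 4.75e-10). Mrpl11, at the base of the stalk, had 34.5 to 43.3 CPM in WT and 20.9 to 28.2 CPM in Veh. Its log2 fold change was -0.62 (SE 0.10, edgeR adjusted p = 9.26e-06) and -0.04 with library totals alone, which was not called.

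At the peptidyl transferase centre, where the peptide bond is formed, both genes fell. Mrpl16 (ENSMUSG00000024683, chr19:11770391-11774960, + strand) had 61.5, 54.5, 59.3, 60.9 and 61.3 CPM in WT, a narrow spread. The Veh values were 23.8, 26.7 and 32.2 CPM (lowest, median, highest), all below WT, and the log2 fold change was -1.13 (SE 0.08, edgeR adjusted p = 1.85e-10). Mrpl27, whose tail reaches into this centre, was at 49.9 ± 3.22 CPM in WT (mean ± SD, 5 mice) and 32.5 ± 3.98 CPM in Veh (6 mice), and its log2 fold change was -0.62 after TMM scaling (edgeR adjusted p = 1.11e-05) and -0.04 with library totals alone.

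Mrps12 lies at the decoding centre of the small subunit. It had 39.6, 34.2, 34.4, 44.0 and 48.1 CPM in WT and 21.4, 23.1 and 25.3 CPM (lowest, median, highest) in Veh, without overlap. The log2 fold change was -0.78 (SE 0.10, edgeR adjusted p = 1.1e-06) and -0.19 with library totals alone, not called. Around the rim of the exit tunnel, through which the new chain leaves toward the inner membrane, 7 of 8 genes fell, with a median of -0.67 (-0.09 with library totals alone). Mrpl23 was the exception.

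Other large falls were found in each part of the particle. Mrps7 (ENSMUSG00000046756, chr11:115603925-115608036, + strand), a protein of the head of the small subunit, had 124, 101, 122, 126 and 144 CPM in WT and 47.2, 53.1 and 66.1 CPM (lowest, median, highest) in Veh. No Veh mouse reached the WT range, and the log2 fold change was -1.19 (SE 0.11, edgeR adjusted p = 6.84e-09). Its exons overlap those of Gga3 and Mif4gd on the other strand.

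Mrpl34 (ENSMUSG00000034880, chr8:71464959-71465747, + strand), a small protein of bacterial descent in the large subunit, had 46.3, 38.6, 40.6, 53.9 and 57.5 CPM in WT. The Veh values were 18.1, 22.1 and 24.99 CPM (lowest, median, highest), all lower (log2 -1.11, SE 0.12, edgeR adjusted p = 4.97e-08). Among the proteins particular to mitochondria, Mrpl50 of the large subunit had 91.8, 86.1, 77.5, 84.5 and 94.5 CPM in WT and 35.4, 41.2 and 46.0 CPM in Veh (log2 -1.09, SE 0.08, edgeR adjusted p = 1.71e-10). The groups were again apart.

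Mrpl38 of the large subunit fell by 1.11 on the log2 scale (from 116 ± 15.8 to 53.6 ± 5.90 CPM, SD, n = 5 and 6, edgeR adjusted p = 2.1e-09). Mrps31 of the small subunit also fell by 1.11 (from 30.5 ± 3.07 to 14.2 ± 2.05 CPM, adjusted p = 1.78e-09), and Mrps34, which stabilises the small subunit, fell by 0.97 (from 67.2 ± 12.1 to 34.4 ± 4.54 CPM, adjusted p = 1.69e-07), with exons that overlap Mapk8ip3 and Nme3. These genes stayed below WT with library totals alone as well, as did Mrpl12, Mrpl10, Mrpl16, Mrps7, Mrpl34 and Mrpl50.

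Mrps36, the component of ketoglutarate dehydrogenase, moved with the ribosomal members. It had 48.5, 36.6, 43.4, 41.6 and 52.4 CPM in WT and 15.4, 17.97 and 25.6 CPM (lowest, median, highest) in Veh, without overlap (log2 -1.21, SE 0.14, edgeR adjusted p = 1.1e-07). Mrps30, a large subunit protein despite its symbol, fell by 0.67 (SE 0.08, edgeR adjusted p = 1.26e-07), and by 0.08 with library totals alone, not called.

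**Figure D3:**
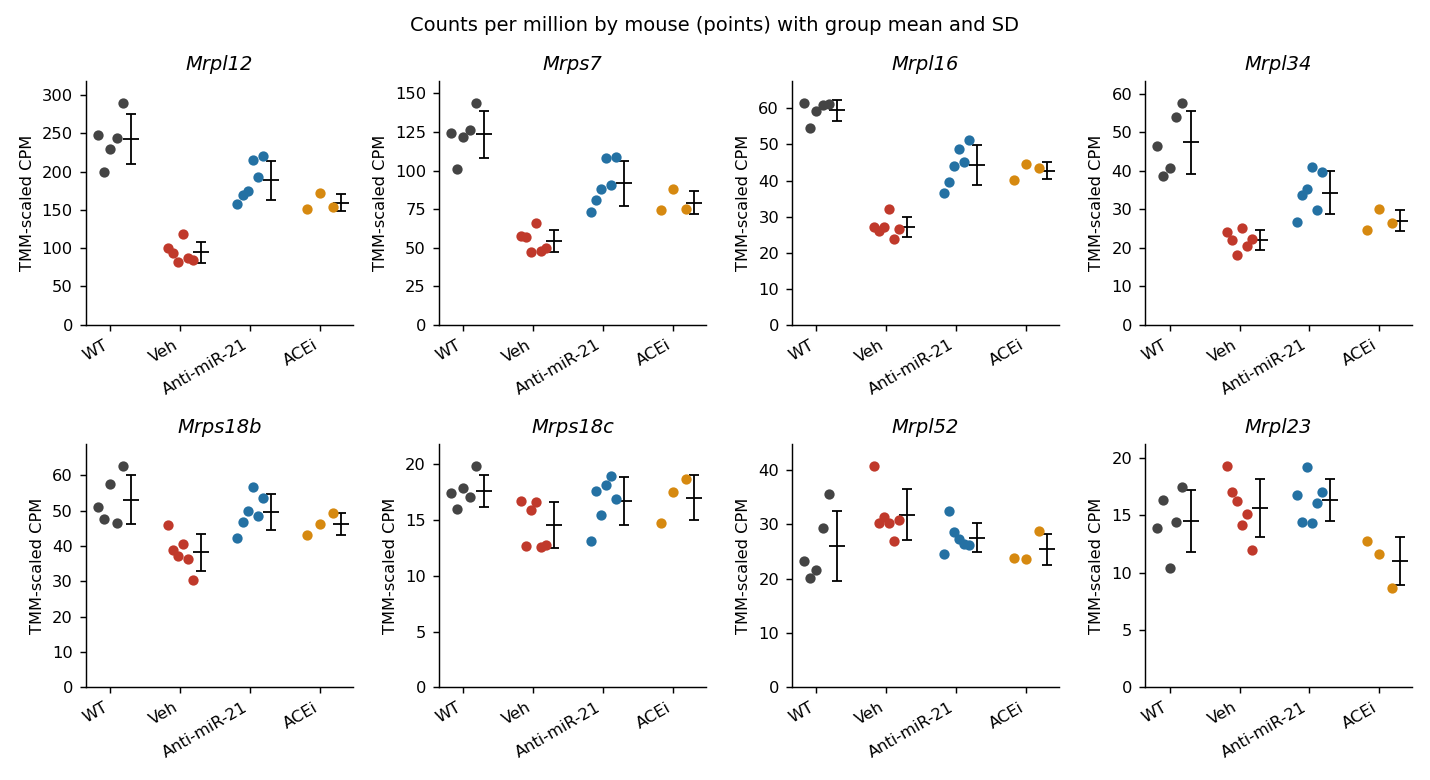
TMM-scaled CPM of 8 members in each mouse (points) with the group mean and SD beside them, in WT (n = 5), Veh (n = 6), Anti-miR-21 (n = 6) and ACEi (n = 3). Mrpl12, Mrps7, Mrpl16 and Mrpl34 were lower in every Veh mouse than in every WT mouse, Mrps18b also (but not with library totals alone, where its sign turned), while Mrps18c, Mrpl52 and Mrpl23 overlapped.

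The 3 Mrps18 paralogues have bacterial ancestry in common, and a mitoribosome takes 1 of the proteins in the large subunit and the others in the small subunit. Mrps18a, the large subunit form, had 63.6, 51.4, 63.9, 63.4 and 71.1 CPM in WT and 33.2, 36.6 and 43.7 CPM (lowest, median, highest) in Veh, without overlap (log2 -0.74, SE 0.09, edgeR adjusted p = 3.75e-07). Mrps18b had 50.9, 47.5, 57.6, 46.6 and 62.6 CPM in WT and 30.2, 38.0 and 46.0 CPM in Veh, where the highest Veh mouse was just under the lowest WT mouse (log2 -0.47, SE 0.10, adjusted p = 0.000197). Mrps18c had 17.4, 15.9, 17.8, 17.1 and 19.8 CPM in WT and 12.6, 14.3 and 16.7 CPM in Veh, and here the groups overlapped (log2 -0.28, SE 0.10, adjusted p = 0.0222). On library totals Mrps18a stayed negative at -0.16, whereas Mrps18b turned to 0.11 (not called) and Mrps18c to 0.31 (called higher). The 3 differences were not tested against each other. Mrps18b shares exon positions with Gm16279 and Mrps18c with Gm43511.

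Mrps6, a small subunit protein of bacterial descent, shares same-strand exons with Slc5a3, a myo-inositol transporter gene of the renal medulla, so that their reads can be hard to separate. Mrps6 had 68.4, 67.8, 79.6, 93.4 and 108 CPM in WT and 44.7, 56.0 and 69.3 CPM (lowest, median, highest) in Veh. The highest Veh mouse was above the lowest WT mice, although Mrps6 was called lower (log2 -0.57, SE 0.13, edgeR adjusted p = 0.000444), and with library totals alone it turned to 0.01. Slc5a3 fell by 1.03 (SE 0.21, adjusted p = 0.000154).

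Exons of 33 of the 78 genes overlap exons of another gene, and whether the counting used strand is not given in the sources used here. Of the 45 genes without such an overlap, 43 fell and 1 rose (median -0.78), and of the 33 with one, 32 fell (median -0.69), after TMM scaling. Mrpl46 and Mrps11 overlap each other, and Mrpl43 overlaps Twnk, the mitochondrial helicase gene.

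Few members did not fall. Mrpl52, a large subunit protein particular to mitochondria, was the 1 gene called higher, with 23.3, 20.2, 21.6, 29.3 and 35.6 CPM in WT and 27.0, 30.6 and 40.8 CPM (lowest, median, highest) in Veh. The groups overlapped, and the log2 fold change was 0.29 (SE 0.13, edgeR adjusted p = 0.0493). It was above 0 under every scaling, at 0.87 with library totals alone, but was not called by DESeq2 (adjusted p = 0.0605), with RLE scaling (0.064), in a fit of the 2 groups alone (0.0791), without the 4 mice with adipocyte marker RNA (0.316), or when any of WT mice A3 (0.111), A6 (0.149) or A14 (0.134) or Veh mice A1 (0.141), A4 (0.0552), A9 (0.0627), A16 (0.0525) or A20 (0.0575) was left out.

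Mrpl23 and Mrpl33 were not called between Veh and WT after TMM scaling. They and the members in the next sentence were named after their values were seen. Mrpl23 had 13.8, 16.3, 10.4, 14.4 and 17.5 CPM in WT and 11.9, 15.7 and 19.3 CPM (lowest, median, highest) in Veh (log2 0.11, SE 0.13, edgeR adjusted p = 0.48), and Mrpl33, a short protein of bacterial descent, had 31.9, 31.0, 38.3, 31.4 and 41.1 CPM and 35.1, 39.4 and 48.1 CPM (log2 0.21, SE 0.10, adjusted p = 0.0571). With library totals alone both were called higher, Mrpl23 at 0.69 (edgeR adjusted p = 0.000263) and Mrpl33 at 0.79 (adjusted p = 3.79e-07), as they were by limma in each FPKM fit (0.80 to 0.82 and 0.70 to 0.71). Mrpl33 was also called with upper-quartile scaling (adjusted p = 0.00714), with at least 10 counts in every sample (0.0147), within flow cell A (0.0264), and without any of WT mice A14 (0.0387) or A18 (0.0154) or Veh mice A16 (0.0479), A19 (0.04) or A20 (0.0296). The smallest falls that were called were those of Mrps25 (-0.13, adjusted p = 0.0322) and Mrpl19 (-0.21, adjusted p = 0.0119), which turned to 0.46 and 0.38 with library totals alone.

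The change between Veh and WT was also listed by motif content, without a test. The 26 genes with a motif had a median of -0.71 (24 lower, 1 higher), the 43 genes with a window and no motif -0.75 (42 lower), and the 9 genes without a window -0.96 (9 lower). By motif the medians were -0.72 with the NRF1 core (7 genes), -0.66 with the ETS core (12 genes) and -0.74 with the YY1 core (8 genes).

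Markers of some kidney cell types differed between the same groups. Summed over 6 markers of the proximal tubule, levels were 14400 to 18440 CPM in WT and 1745 to 4470 CPM in Veh, and all 6 markers fell, with a median log2 fold change of -2.17. Macrophage markers (5 genes) summed to 127 to 137 CPM in WT and 600.4 to 708 CPM in Veh, and markers of fibroblasts (4 genes) to 109 to 249.9 CPM and 1485 to 1793 CPM. Those of tubule injury (4 genes) summed to 15.3 to 32.0 CPM in WT and 546 to 1062 CPM in Veh. Summed markers were also lower in every Veh mouse for the thick ascending limb (5368 to 6557 CPM in WT and 2029 to 4665 CPM in Veh), the distal tubule (418.3 to 776.7 and 117.4 to 214.2 CPM) and the intercalated cell (97.29 to 127.3 and 57.96 to 77.45 CPM). The groups overlapped in those of the collecting duct principal cell (353.9 to 677.4 and 206.9 to 535.5 CPM), the endothelium (77.05 to 213.4 and 180.8 to 230.1 CPM) and the podocyte (59.9 to 92.24 and 85.87 to 106.7 CPM). None of these markers was at 0 in any group. The sums are after TMM scaling. On library totals, all 6 proximal tubule and all 2 distal tubule markers were called lower. Of the 3 thick ascending limb markers 1 was lower and 1 higher, and 1 of 3 was lower for both the intercalated and the principal cell. Higher were 3 of 3 podocyte, 3 of 4 endothelium, 4 of 4 fibroblast, 5 of 5 macrophage and 4 of 4 tubule injury markers. Among all genes tested, 66.0% were called higher and 15.2% lower with this scaling. The part of cell composition in the fall of the mitoribosomal genes was not tested. Without the 4 mice with adipocyte marker RNA, 74 of the 78 genes fell and none rose by edgeR (with all mice, 77 of 78 had an unadjusted p under 0.05, 2 of them higher, where 74.9% of all genes had such a p and 40.0% were higher with it, and DESeq2 called none of the members higher). Within flow cell A, 72 fell and 2 rose, and with flow cell as a term 75 fell and 1 rose.

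The Anti-miR-21 and ACEi groups were each compared with the same 6 Veh mice to ask what the treatments changed, and the values are given side by side. Under Anti-miR-21, 70 of the 78 genes were higher than in Veh and none was lower, where 28.8% of all genes were higher and 30.5% lower. The median log2 fold change was 0.47, where the median of all genes was -0.04. In 45 genes every Anti-miR-21 mouse was above every Veh mouse, which held for 18.6% of all genes. Under ACEi, 50 genes were higher and 1 was lower, where 21.0% of all genes were higher and 19.1% lower. The median was 0.32 against -0.05 for all genes, and in 47 genes all 3 ACEi mice were above all Veh mice (19.8% of all genes).

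Here too the scaling moved the counts. On library totals, 35 of the 78 genes rose and 5 fell with Anti-miR-21 (14% and 56.0% of all genes), for a median of 0.12. With ACEi 18 rose and 7 fell (10.8% and 41.9% of all genes), for a median of 0.05. Relative to the median of all genes, the members stood at 0.51 under TMM and 0.50 under library totals for Anti-miR-21, and at 0.37 under both for ACEi. Without the 4 mice with adipocyte marker RNA, 68 genes were higher under Anti-miR-21 and 59 under ACEi, and none was lower. Within flow cell A, 70 were higher under Anti-miR-21, and ACEi has 1 mouse there. Proximal tubule markers summed to 7444 to 13200 CPM in Anti-miR-21 and 7667 to 9758 CPM in ACEi, and macrophage markers to 256 to 370.0 CPM and 328 to 391 CPM.

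Mrpl12 had the largest difference under both treatments. Its lowest and median values in Anti-miR-21 were 157 and 184 CPM, and the 3 ACEi mice had 152, 172 and 154 CPM. All were above the Veh mice, and the highest Anti-miR-21 mice reached into the WT range, while the ACEi mice did not (log2 against Veh 0.99, SE 0.10, edgeR adjusted p = 1.92e-07 for Anti-miR-21, and 0.75, SE 0.12, adjusted p = 0.000111 for ACEi).

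Mrpl50 had 66.5, 75.4 and 82.7 CPM (lowest, median, highest) in Anti-miR-21 and 60.9, 67.1 and 72.9 CPM in ACEi, above every Veh mouse (log2 0.88 and 0.72, edgeR adjusted p = 3.73e-08 and 1.5e-05). In the same order, Mrpl16 had 36.5, 44.6 and 51.3 CPM and 40.0, 43.4 and 44.6 CPM, above Veh as well (log2 0.71 and 0.66, adjusted p = 3.28e-07 and 3.08e-05). Mrps7 had 73.1, 89.3 and 109 CPM and 74.6, 75.3 and 87.7 CPM, also above Veh (log2 0.76 and 0.55, adjusted p = 5.42e-06 and 0.00216). These 4 genes were higher with library totals alone too.

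The genes not called under Anti-miR-21 were Mrpl19, Mrpl23, Mrpl33, Mrpl52, Mrps6, Mrps15, Mrps18c and Mrps25, with log2 fold changes of -0.20 to 0.22, a list made after their values were seen. Mrps18a rose under both treatments (log2 0.42 and 0.41, edgeR adjusted p = 0.000396 and 0.00473), Mrps18b under Anti-miR-21 (0.38, adjusted p = 0.0017, and 0.28, adjusted p = 0.0593 under ACEi), and Mrps18c was called under neither (0.20 and 0.23). On library totals none of the 3 was called, and the signs of Mrps18a (0.08 and 0.14) stayed, while those of Mrps18c turned (-0.14 and -0.05).

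The 1 member lower under ACEi than in Veh was Mrpl23, a protein at the exit tunnel. Its 3 ACEi mice had 12.7, 11.6 and 8.65 CPM and the Veh mice 11.9, 15.7 and 19.3 CPM (lowest, median, highest), so that 1 ACEi mouse lay within the Veh range (log2 -0.51, SE 0.16, edgeR adjusted p = 0.0166). Without ACEi mouse A23 the value was -0.36 (adjusted p = 0.129), and without the 4 mice with adipocyte marker RNA -0.29 (0.226). No member that fell in Veh was called further down under Anti-miR-21 or ACEi.

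The treatments were also compared with each other. None of the 78 genes was called by edgeR in either direction, where 0.363% of all genes were higher under Anti-miR-21 and 0.221% lower. The median log2 fold change was 0.15 (0.01 over all genes), and 14 of the 78 genes had an unadjusted p under 0.05, all of them higher under Anti-miR-21. Among all genes 14.5% had such a p, and 7.12% were higher with it. DESeq2 called 2 genes, and edgeR with flow cell as a term called 1. Those from DESeq2 were Mrpl23 (0.57, adjusted p = 0.0326, against 0.113 by edgeR) and Mrps35, a small subunit protein (0.30, adjusted p = 0.0462, against 0.113). The one with the flow cell term was Mrps6 (0.57, adjusted p = 0.0496, against 0.223 without it). In the fits on log2 FPKM, Mrpl23 was at 0.12 (adjusted p = 0.732 to 0.805), and without ACEi mouse A23 at 0.42 by edgeR (adjusted p = 0.487). With 3 ACEi mice, a miss of the threshold does not show that the treatments act alike.

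Against WT, which the 3 comparisons share, the members were mostly lower under both treatments after TMM scaling. Under Anti-miR-21, 52 genes were lower and none higher (19.8% and 23.9% of all genes), with a median of -0.27, and 4 genes were lower in every mouse (9.06% of all genes), namely Mrpl10, Mrpl16, Mrps27 and Mrps34 (Mrps27 being named for this after its values were seen). Under ACEi, 72 genes were lower and none higher (22.5% and 25.2% of all genes), with a median of -0.41, and 68 genes were lower in every mouse (22.3% of all genes). On library totals, 2 genes were lower and 5 higher under Anti-miR-21, where 5.66% of all genes were lower and 43.8% higher, and the medians were -0.03 for the members and 0.26 for all genes. Under ACEi 16 were lower and 2 higher, where 7.63% of all genes were lower and 45.4% higher, with medians of -0.10 and 0.31. The counts of lower members against WT thus moved with the scaling. Within flow cell A, which leaves 3 WT and 5 Anti-miR-21 mice, 6 genes were lower under Anti-miR-21, with a median of -0.19. Relative to the median of all genes, the members stood at -0.21 there and at -0.28 with all mice. The share of all genes called in this fit of fewer mice is not given here, so the smaller count cannot be read as a trait of the members. After TMM scaling, 62 members had an unadjusted p under 0.05 by edgeR under Anti-miR-21 and 73 under ACEi, none of them higher, where 50.9% and 53.9% of all genes had such a p, 27.2% and 27.8% with a higher level.

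The largest differences that remained were in Mrpl34, Mrps34 and Mrps7 under Anti-miR-21 and in Mrpl34, Mrps6 and Mrps7 under ACEi. Mrpl34 had 26.6, 34.5 and 41.0 CPM (lowest, median, highest) in Anti-miR-21 and 24.6, 26.3 and 29.99 CPM in ACEi. The ACEi mice were below every WT mouse, and the highest Anti-miR-21 mouse overlapped the lowest WT mice (log2 against WT -0.47, SE 0.12, edgeR adjusted p = 0.00356, and -0.81, SE 0.15, adjusted p = 0.000163). Mrps34 had 41.8, 48.0 and 58.7 CPM in Anti-miR-21, below every WT mouse (log2 -0.45, adjusted p = 0.00343). Its WT level includes mouse A18 at 88.67 CPM, where the other WT mice had 60.74 to 62.85 CPM. Mrps6 had 41.5, 52.9 and 54.2 CPM in ACEi, also below every WT mouse (log2 -0.75, adjusted p = 0.000619). Mrps7 differed by -0.43 (adjusted p = 0.00396) and -0.64 (adjusted p = 0.000771). All of these were below 0 with library totals alone. Slc5a3, which shares same-strand exons with Mrps6, differed from WT by -0.757 under ACEi (SE 0.255, edgeR adjusted p = 0.0194). It too was lower in every ACEi mouse than in every WT mouse, and the reads of the pair can be hard to separate.

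Ratios between gene groups within a mouse do not depend on the scaling. Per 100 counts on cytosolic ribosomal protein genes, the 78 mitoribosomal genes had 27.5 ± 0.90 counts in WT (SD, n = 5, range 26.4 to 28.5), 12.1 ± 1.85 in Veh (n = 6, 9.83 to 14.1), 19.6 ± 1.53 in Anti-miR-21 (n = 6, 17.4 to 21.8) and 19.4 ± 1.65 in ACEi (n = 3, 17.5 to 20.5). Veh was below, and WT above, every mouse of the treated groups, which overlapped each other. Per 100 counts on nuclear OXPHOS subunit genes the order was turned, with 16.8 ± 0.76 in WT (15.9 to 18), 24.4 ± 2.09 in Veh (21.3 to 27.1), 18.5 ± 0.94 in Anti-miR-21 (17.5 to 20.1) and 19.2 ± 0.46 in ACEi (18.7 to 19.6). Veh again lay apart from all other mice, while WT and Anti-miR-21 overlapped. In Veh the mitoribosomal genes thus had fewer counts relative to cytosolic ribosomal protein genes and more relative to OXPHOS subunit genes, without a test of these ratios. The summed CPM of large subunit genes over that of small subunit genes was 2.22 to 2.32 in WT and 2.15 to 2.20 in Veh, which was below all other mice, and 2.22 to 2.28 in Anti-miR-21 and 2.25 to 2.30 in ACEi.

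**Figure D4:**
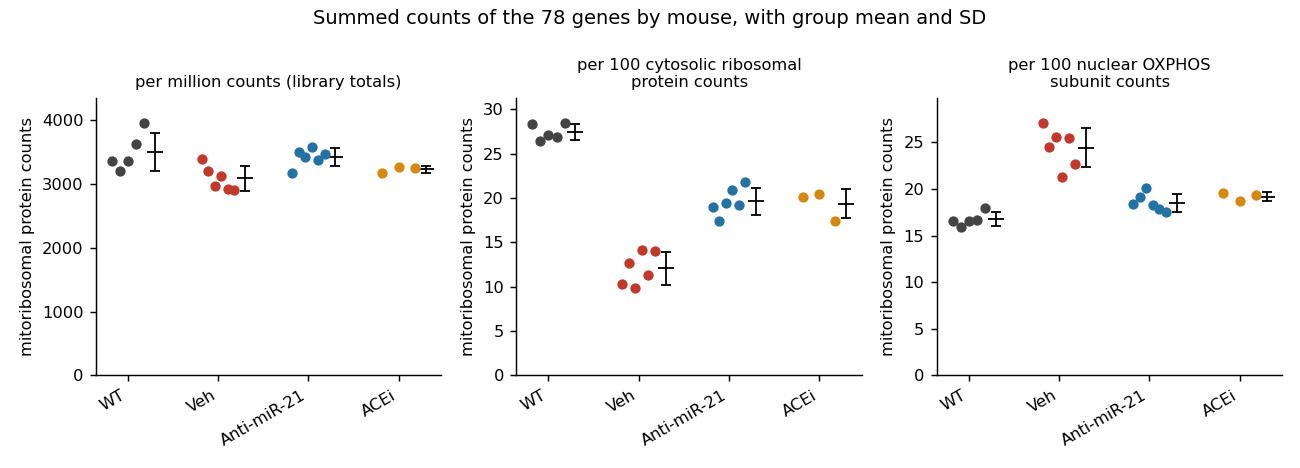
Summed counts of the 78 genes in each mouse (points, with group mean and SD), as CPM of the library total (left), per 100 counts on cytosolic ribosomal protein genes (middle) and per 100 counts on nuclear OXPHOS subunit genes (right). The Veh mice (9.83 to 14.1) lie below all others in the middle panel and above all others (21.3 to 27.1) in the right panel, and overlap WT in the left panel.

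Other genes of the same pathway were counted from lists of their own, with directions after TMM scaling. Of all genes tested, 34.0% fell and 39.0% rose in Veh (15.2% and 66.0% on library totals). Among 5 mitoribosomal proteins with other symbols, all fell in Veh (median -0.68), led by Ptcd3 (-0.90, edgeR adjusted p = 2.91e-10) and Dap3 (-0.74, adjusted p = 1.97e-09), both of the small subunit. All 14 mitochondrial translation factors fell (median -0.85), with the elongation and recycling factors Gfm1 (-1.71, from 160.2 ± 11.0 to 49.1 ± 10.2 CPM, SD, n = 5 and 6, adjusted p = 6.96e-11) and Gfm2 (-1.33, adjusted p = 3.51e-11) in front. All 17 mitochondrial aminoacyl-tRNA synthetases, which charge tRNAs, fell (median -0.70), with Rars2 at -1.34 (adjusted p = 2.14e-11) and Fars2 at -1.18 (adjusted p = 2.27e-10). The medians of these 3 lists were -0.10, -0.27 and -0.12 on library totals, where 1, 1 and 3 of their genes were called higher.

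Of 24 genes for mitoribosome assembly and rRNA modification, 20 fell and 1 rose (median -0.53, which turned to 0.05 with library totals alone, 7 genes lower and 7 higher). Mtg1, a GTPase of large subunit assembly, fell by 1.03 (adjusted p = 5.64e-09), and Mettl15, which methylates the small subunit rRNA, by 0.99 (adjusted p = 2.43e-07). Mterf4, needed for the large subunit, moved the other way. It was at 30.7 ± 4.02 CPM in WT and 44.9 ± 5.00 CPM in Veh (mean ± SD), and rose by 0.55 on the log2 scale (edgeR adjusted p = 1.42e-05), and was lower than Veh under Anti-miR-21 (-0.59, adjusted p = 7.07e-06) and ACEi (-0.54, adjusted p = 0.00049), with the same signs under library totals alone.

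Both rRNAs of the mitoribosome, which are made in the organelle, were lower in Veh after TMM scaling, mt-Rnr2 by 0.85 (SE 0.19, edgeR adjusted p = 0.000423) and mt-Rnr1 by 0.77 (SE 0.18, adjusted p = 0.000843), and were not called with library totals alone (-0.26 and -0.18). The study's methods do not say whether rRNA was removed before sequencing, on which these rRNA counts would depend. All 13 mRNAs that the mitoribosome translates fell (median -1.56, and -0.98 with library totals alone), among them mt-Nd2 (-1.82, adjusted p = 2.18e-09) and mt-Nd4 (-1.68, adjusted p = 1.88e-09), both complex I subunits. They took 11.96 to 13.8% of all counts in WT and 5.82 to 8.07% in Veh. Of 79 nuclear OXPHOS subunit genes tested, 76 fell and 3 rose (median -1.18). Ndufs1 of complex I fell by 1.76 (adjusted p = 2.37e-10) and Cox6a2 by 2.65 (adjusted p = 3.87e-08), while Ndufa4l2, which is induced by hypoxia, rose by 0.96 (adjusted p = 8.65e-06). Cox8b, a muscle and brown fat form, rose by 4.24 (SE 1.52, adjusted p = 0.0171) with overlapping groups. The Veh mice include 3 with adipocyte marker RNA, and the Cox8b value without them is not given here. On library totals 72 of the nuclear OXPHOS subunit genes fell and 3 rose.

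Cytosolic ribosomal protein genes went the other way, with 67 of 82 higher in Veh, 5 lower and a median of 0.47 (79 higher, 1 lower and 1.05 with library totals alone). Rpl12 rose by 1.55 (adjusted p = 2.42e-09) and Rps16 by 0.87 (adjusted p = 0.000128), whereas Rpl3l, a muscle form, fell by 2.68 (adjusted p = 2.04e-06) and Rps27l by 0.49 (adjusted p = 0.00011), the last at 0.09 with library totals alone. Reads of such genes can be shared with their many pseudogenes, so single values are uncertain.

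**Figure D5:**
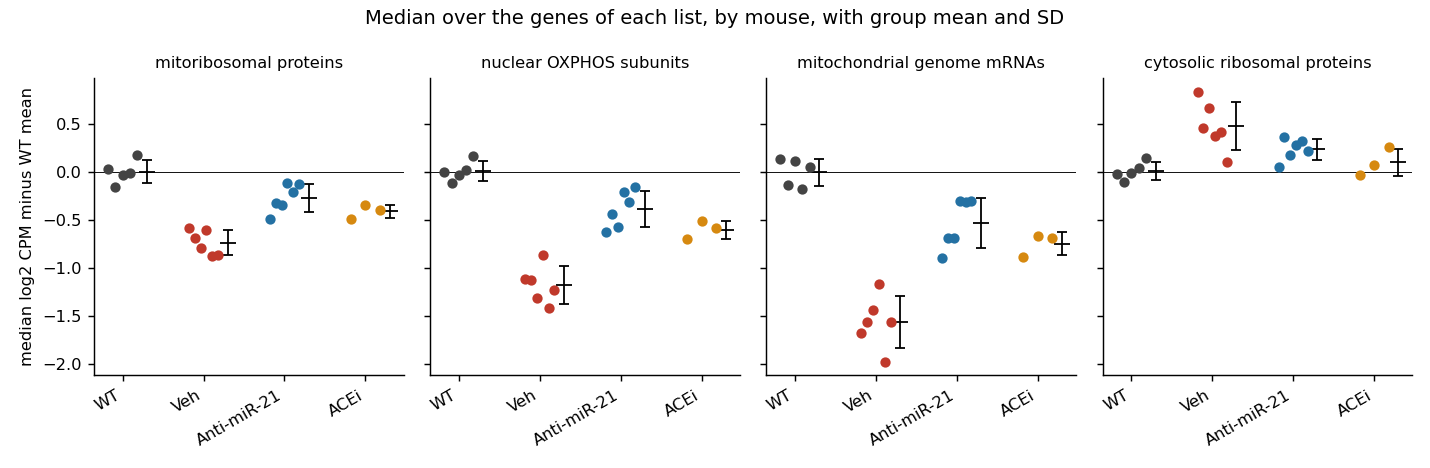
Median log2 CPM of 4 gene lists in each mouse, as the difference from the WT mean after TMM scaling (points, with group mean and SD). The mitoribosomal medians were -0.16 to 0.17 in WT, -0.88 to -0.59 in Veh, -0.50 to -0.12 in Anti-miR-21 and -0.49 to -0.35 in ACEi; with library totals alone the median of the 78 genes in Veh was -0.15, and that of cytosolic ribosomal proteins stayed positive at 1.05.

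Not every gene of the 16 for mitochondrial transcription and its regulators, which include Tfam and Twnk, acts on the mitoribosomal genes. In Veh 11 of them fell and 3 rose, where 34.0% of all genes tested fell and 39.0% rose. Their median was -0.49, which turned to 0.09 with library totals alone. Esrra, a nuclear receptor that drives OXPHOS genes, fell by 1.29 (adjusted p = 5.25e-10), and its coactivator Ppargc1b by 1.27 (adjusted p = 4.77e-07). Myc rose by 2.40 (adjusted p = 1.27e-08) and Gabpb1, a subunit of GABP, by 0.28 (adjusted p = 0.00148). Chosen after their values were seen, as the factors whose motifs were searched, Nrf1 rose by 0.20 (adjusted p = 0.0137), Gabpa fell by 0.30 (adjusted p = 0.000156, but 0.28 with library totals alone) and Yy1 was at -0.06 (adjusted p = 0.382, and 0.53 with library totals alone). Tfam, which packages mitochondrial DNA, fell by 0.92 (adjusted p = 3.45e-09), a value also picked after it was seen.

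The same lists are given side by side for the treatments against Veh, after TMM scaling unless stated. Of the translation factors, 13 of 14 were higher under Anti-miR-21 (median 0.60) and 11 under ACEi (0.42). On library totals 8 were higher and 1 lower (0.26), and 6 higher and 1 lower (0.15). All 17 synthetases were higher under Anti-miR-21 (0.37) and 10 under ACEi (0.29), but on library totals 5 were higher under Anti-miR-21 (0.02), and 5 were higher and 1 lower under ACEi (0.02). Of the assembly genes, 18 of 24 were higher under Anti-miR-21 (0.30) and 10 under ACEi (0.20), medians that turned to -0.04 and -0.07 with library totals alone. The calls were then 7 higher and 6 lower, and 3 higher and 7 lower. Of 79 nuclear OXPHOS subunit genes, 73 were higher and 1 lower under Anti-miR-21 on library totals (0.45), and 54 and 1 under ACEi (0.31). All 13 mitochondrial mRNAs were higher under Anti-miR-21 (0.98) and 11 under ACEi (0.78), with 12 (median 0.64) and 10 (0.52) on library totals. Both rRNAs were higher under each treatment (mt-Rnr2 alone was called on library totals). Of 82 cytosolic ribosomal protein genes, 37 were lower than in Veh and 4 higher under Anti-miR-21 (median -0.25), and 53 lower and 2 higher under ACEi (-0.38). With the library total as the only scaling these counts were 76 lower and 1 higher (-0.59), and 74 lower and 1 higher (-0.65). Against WT neither rRNA was called under Anti-miR-21 or ACEi by edgeR, with log2 fold changes of -0.10 to 0.16 (0.14 to 0.47 with library totals alone), and neither had an unadjusted p under 0.05.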

How the data were processed

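Kidney RNA of 20 mice was measured by paired-end sequencing of total RNA. Per the labels and the study's methods, the authors aligned reads with the OmicSoft aligner to GRCm38. They deposited estimated counts per Ensembl gene, of which 29.1% of the positive values are not whole, and FPKM values per gene on a merged gene model. Deposited alignment counts per library were read as well. Here counts were rounded, filtered with filterByExpr (minimum count 10, total 15), scaled by TMM and tested with edgeR 4.0.16 (glmQLFit, glmQLFTest) in R 4.3.3 over all 20 mice with 1 coefficient per group. Columns of 3 libraries with no sample here were not used. Alternatives were DESeq2 1.42.0, other scalings and filters, flow cell, and limma 3.58.1 on log2(FPKM + 1) or log2(FPKM + 0.1). The script was tested on simulated data.

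The members and lists were chosen with earlier results of these data known. Members given in full were the 8 called lower and up to 6 called higher most strongly between Veh and WT, up to 6 called between treatments, the 3 largest remaining against WT under each treatment, and members with a special place, locus or paralogue. Of each list the 2 genes that fell and the 2 that rose most were named, and Col4a3 as the check of the genotype. Any other gene named was chosen after its values were seen. Mice with over 50 CPM of summed adipocyte markers were left out in 1 alternative. Mice carry no shared numbers, so nothing was paired. The p-values set a difference between groups against the spread between mice, which was estimated over all 4 groups together. Library totals were 28474301 to 29479629 counts.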

Additional observations from a re-analysis of the deposited data

Results flagged for a closer look

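In 66 groups of 5 or 6 mice (19 members and 3 summaries), 1 mouse stood apart from the rest of its group by Dixon's test in 3 groups, where chance gives about 1 in 20. Mrps31, of the small subunit, was at 25.18 CPM in WT mouse A6, below the other WT mice. Mrpl52, of the large subunit, was at 40.77 CPM in Veh mouse A1, above the other Veh mice, and without that mouse it was not called between Veh and WT. Mrps34, of the small subunit, was at 88.67 CPM in WT mouse A18, above the other WT mice.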

How the results depend on the processing

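No paired analysis was possible because each mouse has a name of its own and no number is shared between groups. The scaling moved the results most, and the cause was not tested. On library totals alone, 36 and 8 genes were called lower and higher for Veh against WT (median log2 fold change -0.15), 5 and 35 for Anti-miR-21 against Veh (0.12), 7 and 18 for ACEi against Veh (0.045), 2 and 5 for Anti-miR-21 against WT (-0.033, where the median of all genes was 0.256) and 16 and 2 for ACEi against WT (-0.10, where it was 0.307). By limma on log2(FPKM + 1), over the 76 genes in that table and in the same order, they were 34 and 8 (-0.13), 5 and 35 (0.12), 6 and 15 (0.044), 2 and 3 (-0.021) and 15 and 1 (-0.084). On log2(FPKM + 0.1) they were 33 and 8 (-0.13), 5 and 33 (0.13), 6 and 14 (0.045), 2 and 3 (-0.021) and 11 and 1 (-0.087), and on log2(FPKM + 1) without a filter 34 and 8 (-0.13), 5 and 34 (0.12), 6 and 17 (0.044), 2 and 3 (-0.021) and 14 and 1 (-0.084). Between Veh and WT, 22 of the 78 genes were above 0 on library totals, where TMM gave 3. Among the members given in full the sign turned for Mrps6 (0.007 with library totals alone, 0.035 in each FPKM fit), Mrps18b (0.11, and 0.10 in each FPKM fit) and Mrps18c (0.31, and 0.30, 0.31 and 0.30).

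The 1 gene higher in Veh became 0 by DESeq2, RLE scaling, a fit of the 2 groups alone and without the 4 mice with adipocyte marker RNA (an alternative chosen after seeing the data), and 2 by upper-quartile scaling, a minimum of 10 counts in every sample and flow cell A alone. The 1 gene lower under ACEi than in Veh became 2 by upper-quartile scaling and 0 without those 4 mice. Between treatments DESeq2 called 2 genes and a flow cell term 1. Flow cell A alone, a fit of fewer mice, left 6 genes lower under Anti-miR-21 against WT, in place of 52. The share of all genes called in that fit is not given here.

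Leaving out 1 mouse at a time gave 73 to 75 genes lower (median -0.77 to -0.69) and 0 to 2 higher for Veh against WT, 69 to 73 higher and 0 lower (0.44 to 0.52) for Anti-miR-21 against Veh, 36 to 62 higher and 0 to 1 lower (0.29 to 0.37) for ACEi against Veh, 35 to 56 lower and 0 higher (-0.32 to -0.23) for Anti-miR-21 against WT, 51 to 70 lower and 0 higher (-0.45 to -0.36) for ACEi against WT, and 0 in either direction (0.11 to 0.19) between treatments. ACEi has 3 mice, which limits its comparisons most.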
